A study of Mus musculus with 2 samples.

Results

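The nuclear-encoded genes of respiratory complexes II to V were followed as a set of 45 genes. The set was given by gene name: 4 genes of complex II, 8 of complex III, cytochrome c, 15 of complex IV, 5 of complex IV assembly and 12 of complex V. All 45 were found among 25841 genes and unnamed loci. Of these, 41 passed a filter that asked for 1 FPKM or more in either library and a transcript no shorter than 300 nt. The 4 others were Cox4i2, Cox6b2, Sco2 and Atp5k. FPKM is a transcript's fragment count relative to its length and to all fragments of the library. RNA came from mesenchymal stem/progenitor cells, cultured in DMEM with serum, of CD-1 mice aged 3 months. These are stromal cells of bone marrow that can form fat, bone and cartilage cells. There was 1 library from PPARg-deficient cells (genotype PPAR KO) and 1 from PPARg-floxed cells (PPAR-flox), in which the Pparg gene carries recombination sites. The labels used here do not say how Pparg was deleted, how many mice gave cells, or whether cells were pooled or cloned. With 1 library per group there is no replicate check, so no test, standard error or p-value is given, and a gene is called by the size of its difference alone.

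The respiratory chain of the inner mitochondrial membrane moves electrons from complexes I and II through complex III and cytochrome c to complex IV, where oxygen is reduced. Complexes III and IV pump protons, and complex V, the ATP synthase, uses the resulting gradient to make ATP. Complex II is built only from nuclear genes, whereas complexes III, IV and V also contain subunits made inside the mitochondrion. PPARg is a nuclear receptor that drives the formation of fat cells, a process known to raise mitochondrial content.

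Pparg itself was at 1.39 FPKM in the deficient library and 6.86 FPKM in the floxed library. Covered bases summed to 1728 megabases in the deficient library, against 1383 megabases in the floxed library. The median of 10697 kept loci was higher by 0.86 on the log2 scale in the deficient library, a factor of 1.81. FPKM values below are as deposited, and every log2 difference is deficient minus floxed on the log2(FPKM + 1) scale, set against that median gene except where marked as deposited. Of 11 markers of stromal cells 8 reached 1 FPKM in each library. Ly6a was at 841 FPKM in the deficient and 530.4 FPKM in the floxed library, but the defining markers Thy1 (0.419 and 0 FPKM) and Eng (0 and 0.0342 FPKM) were near 0 in the deficient and floxed libraries. No matched marker of white blood cells or of endothelial cells reached 1 FPKM in either library. In bulk RNA, fewer cells of a type and less RNA per cell cannot be told apart.

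The median of the respiratory genes lay at the median gene, and a small number of subunits stood apart from the rest. The median log2 difference of the 41 kept members was 0.04, against 0 for all kept loci by construction, with 21 members above the median gene and 20 below it. By summed FPKM, in which the most abundant genes weigh most, the kept members made up 1.75% of all kept loci in deficient cells and 1.11% in floxed cells. At least 2-fold higher were 8 members: Cox6a2, Atp5d, Atp5b, Cox6a1, Uqcrc1, Uqcr11, Cox8a and Cox5b. They made up 19.5% of the kept members, where 10.3% of all kept loci were at least 2-fold higher. At least 2-fold lower was 1 member, Atp5l, or 2.44% of the kept members, where 11.7% of all kept loci were at least 2-fold lower. Among members with a mean of at least 50 FPKM, 4 of 30 were higher, or 13.3%, and of all 1489 loci at that level 13.4% were higher. As deposited, without setting values against the median gene, 18 members were at least 2-fold higher and 0 lower, where 42% of all kept loci were higher and 4.64% lower. In that form 39 of 41 members lay above 0, as did 86.2% of all kept loci.

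**Figure D1:**
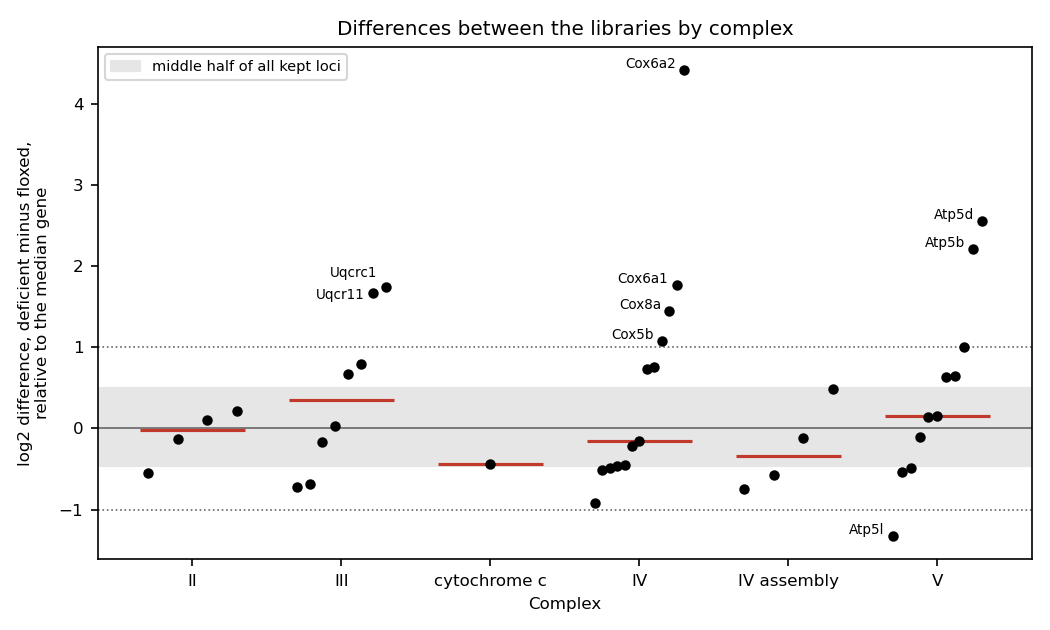
Log2 difference of each of the 41 kept members, deficient minus floxed, relative to the median gene, by complex; red bars are medians, dotted lines mark 2-fold and the grey band holds the middle 50% of all kept loci. The 8 labelled members above the upper line belong to complexes III, IV and V, and Atp5l alone lies below the lower line.

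Each transcript's FPKM was deposited with lower and upper bounds, which reflect its estimation in a single library and not the spread between cultures. For the major transcript of a kept member their median half-width was 7.12% of the value for deficient cells and 9.58% for floxed cells. They did not overlap between the libraries for 33 of 41 kept members, on deposited values that include the factor of 1.81 of the median gene. The same share over all kept loci was not computed, so this count does not set the members apart from other genes. Fragment counts are not in these values, so depth is stated as covered bases: the members together held 12.1 megabases in deficient cells and 6.9 megabases in floxed cells.

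Complex II, succinate dehydrogenase, takes electrons from succinate of the citrate cycle. Its 4 genes were the most even of the 4 complexes, with log2 differences from -0.55 to 0.22, and 0 of 4 passed 2-fold. Sdha, the flavoprotein that oxidizes succinate, was at 167 FPKM in the deficient library and 85.3 FPKM in the floxed library (0.10). Sdhb, the iron-sulfur subunit, was at 206 and 166 FPKM in the deficient and floxed libraries (-0.55). Sdhc and Sdhd anchor the enzyme in the membrane. Sdhc was at 253 FPKM in the deficient and 119.8 FPKM in the floxed library (0.22), and Sdhd at 200.2 FPKM in the deficient and 120.5 FPKM in the floxed library (-0.13). All 4 levels were higher in the deficient library as deposited, and the highest stood 1.52 times above the lowest there and 1.95 times above it in floxed cells.

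Complex III passes electrons from ubiquinol to cytochrome c. Of its 8 genes 2 were at least 2-fold higher and 0 lower, with a median of 0.35. Uqcrc1, a core subunit of the matrix face, lies on chromosome 9 from 108838661 to 108851686 (mm9). It was at 58.0 FPKM in the deficient library and 8.74 FPKM in the floxed library, a log2 difference of 1.74. The bounds of its transcript were 53.9 to 62.1 FPKM and 7.11 to 10.4 FPKM in the deficient and floxed libraries. Its partner core subunit Uqcrc2 was at 137 FPKM in the deficient and 46.8 FPKM in the floxed library (0.67). The core subunits thus stood at different levels in each library, with Uqcrc2 above Uqcrc1. Cyc1 encodes cytochrome c1, the heme protein that hands electrons to cytochrome c. It was the lowest gene of the complex, at 6.37 FPKM in the deficient and 1.34 FPKM in the floxed library (0.80).

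All 5 small subunits of complex III stood above the core subunits and Cyc1 in each library, and 3 of them lay below the median gene. Uqcr11 (chromosome 10, 79865740 to 79869566, mm9) was the 1 small subunit past 2-fold, at 323 FPKM in the deficient and 55.1 FPKM in the floxed library (1.67). Uqcrq was at 905 FPKM in the deficient and 487 FPKM in the floxed library (0.04), and Uqcr10 at 632 FPKM in the deficient and 389 FPKM in the floxed library (-0.16). Uqcrb, which contacts the quinone site, was at 444 FPKM in the deficient and 394 FPKM in the floxed library (-0.68). Uqcrh, the hinge protein at cytochrome c1, was at 358 FPKM in the deficient and 327 FPKM in the floxed library (-0.73). As deposited, all 8 genes of the complex were above 0. Cycs, cytochrome c itself, was at 124 FPKM in the deficient and 92.5 FPKM in the floxed library (-0.44).

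**Figure D2:**
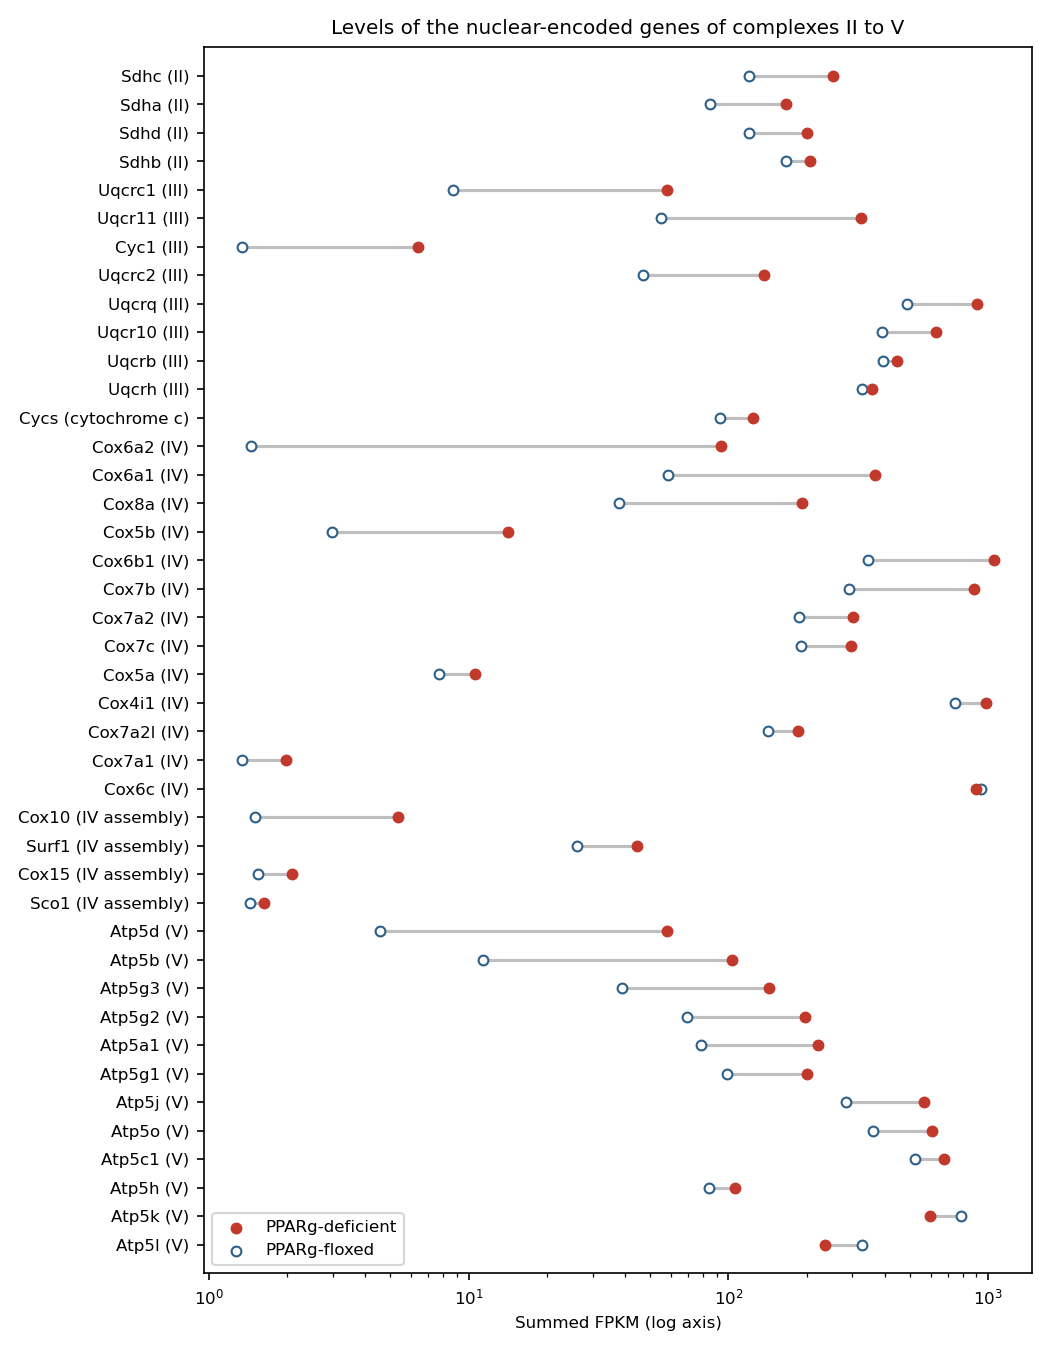
Summed FPKM (log axis) of each member in the PPARg-deficient library (filled red) and the PPARg-floxed library (open blue), ordered by difference within each complex; Cox4i2 and Cox6b2, listed at 0 in both libraries, and Sco2, listed at 0 in the floxed library, are left out. The deficient value lies to the right except for Cox6c, Atp5k and Atp5l, and Atp5d, at 58.1 and 4.55 FPKM in the deficient and floxed libraries, has the widest gap after Cox6a2.

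Complex IV, cytochrome c oxidase, surrounds a catalytic core made in the mitochondrion with nuclear subunits. Of 13 kept members 4 were at least 2-fold higher and 0 lower, with a median of -0.16. Cox6a1 (chromosome 5, 115795663 to 115798964, mm9), the common form of a subunit that modulates the enzyme, was at 367 FPKM in the deficient and 58.5 FPKM in the floxed library (1.77). Cox8a (chromosome 19, 7289648 to 7292106, mm9), a small membrane subunit, was at 191 FPKM in the deficient and 37.7 FPKM in the floxed library (1.45). Cox5b (chromosome 1, 36748317 to 36750620, mm9), a zinc-binding subunit of the matrix side, was at 14.2 FPKM in the deficient and 2.98 FPKM in the floxed library (1.08). Cox5b lay close to the 2-fold line: it held the call in 7 of 12 settings, and its lowest value was 0.78, as TPM, where each library sums to the same total.

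The most abundant subunits of complex IV were nearer the median gene. Cox6b1, which faces cytochrome c, was at 1056 FPKM in the deficient and 343 FPKM in the floxed library (0.76). Cox4i1, the subunit through which ATP inhibits the enzyme, was at 981 FPKM in the deficient and 747 FPKM in the floxed library (-0.46). Cox6c was at 898 FPKM in the deficient and 934 FPKM in the floxed library (-0.91), with overlapping bounds, and was the 1 kept complex IV gene below 0 as deposited. Cox7a2 was at 303 FPKM in the deficient and 186 FPKM in the floxed library (-0.16), and Cox7c at 296 FPKM in the deficient and 190.1 FPKM in the floxed library (-0.22). Cox7a2l, known for joining complexes III and IV into supercomplexes, was at 185 FPKM in the deficient and 142 FPKM in the floxed library (-0.48). Cox5a, the partner of Cox4i1, was at only 10.5 FPKM in the deficient and 7.67 FPKM in the floxed library (-0.45). The 10 common subunits therefore spanned a 100.2-fold range of FPKM in deficient cells and a 314-fold range in floxed cells, and the lowest of them was Cox5a in deficient cells and Cox5b in floxed cells.

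Cox7b was at 883 FPKM in the deficient and 291 FPKM in the floxed library (0.74), but most of that sum sat on a transcript of 295 nt. This short transcript was at 678 FPKM in the deficient library (bounds 616 to 741) and 179 FPKM in the floxed library (144 to 213). The transcript of 1001 nt was at 204 FPKM in the deficient and 113 FPKM in the floxed library. With transcripts under 300 nt left out, the log2 difference of Cox7b was -0.01.

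Cox6a2, the form of the Cox6a subunit used in heart and skeletal muscle, had the largest difference of any member, and it rested on a short transcript. The gene lies on the minus strand of chromosome 7 from 135348949 to 135349953 (mm9). Its summed value was 93.8 FPKM in the deficient and 1.45 FPKM in the floxed library (4.42). Of the sum in the deficient library, 94.5% belonged to a transcript of 180 nt with a single exon, at 88.7 FPKM with bounds of 35.1 to 142 FPKM, and that transcript was listed at 0 in the floxed library. Its bounds there were also 0, and since a listed 0 can be a failed estimate, the summed difference and the 2-fold call of Cox6a2 are uncertain. It shares 107 bases with the first exon of the spliced transcript and extends 73 bases upstream of it. The spliced transcript of 659 nt and 3 exons was at 5.18 FPKM (2.92 to 7.44) in the deficient library and 1.45 FPKM (0.27 to 2.64) in the floxed library. On that transcript alone the log2 difference was 0.48, so Cox6a2 no longer passed 2-fold and 7 members were higher. Transcripts under 300 nt held 320.5 megabases of covered bases in the deficient library against 118 megabases in the floxed library, and their part in the values of Cox6a2 and Cox7b was not tested.

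**Figure D3:**
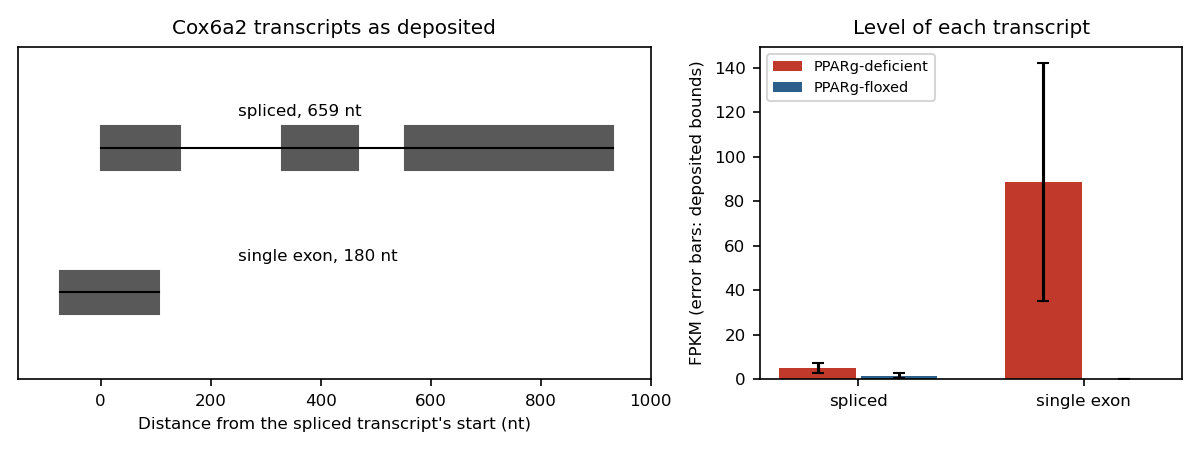
Left, exons of the Cox6a2 transcripts as deposited, by distance from the start of the spliced transcript; right, FPKM of each transcript in the PPARg-deficient (red) and PPARg-floxed (blue) libraries, with error bars for the deposited bounds. The single-exon transcript of 180 nt is at 88.7 FPKM in the deficient library and at 0 in the floxed library, while the spliced one is at 5.18 and 1.45 FPKM in the deficient and floxed libraries.

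Muscle markers were low in both libraries. The 15 genes on that list summed to 8.24 FPKM in the deficient and 3.19 FPKM in the floxed library, and 11 and 12 of them were at 0 in the deficient and floxed libraries, among them Myod1, Ckm and Myh7. The highest were Tnnc1 (3.09 FPKM in deficient and 1.99 FPKM in floxed cells), Mylpf (2.52 FPKM in deficient and 1.11 FPKM in floxed cells) and Acta1 (2.09 FPKM in deficient and 0.0897 FPKM in floxed cells). Of 4 brown fat markers, Ucp1 and Cidea were listed at 0 in both libraries. The part of other cell types in the Cox6a2 value was not tested.

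The other tissue isoforms of complex IV had low or no listed values. Cox4i2, the lung form, and Cox6b2, the testis form, were listed at 0 in both libraries, and a listed 0 can be a failed estimate. Cox7a1, the heart and muscle form, was at 1.97 FPKM in the deficient and 1.34 FPKM in the floxed library, and the lower bounds of its transcript were 0 in both. It made up 0.648% of the summed Cox7a1 and Cox7a2 level in deficient cells and 0.712% in floxed cells. Cox6a2 made up 20.3% of the summed Cox6a1 and Cox6a2 level in deficient cells and 2.42% in floxed cells. Counted on transcripts of at least 300 nt, that share was 1.39% in deficient cells and 2.42% in floxed cells.

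Assembly factors of complex IV differed widely in level. Cox10 and Cox15, which make the heme A of the enzyme, were at 5.35 and 2.09 FPKM in the deficient library and at 1.5 and 1.54 FPKM in the floxed library. Their log2 differences were 0.48 for Cox10 and -0.58 for Cox15. Surf1, an assembly factor whose loss causes Leigh syndrome in humans, was at 44.5 FPKM in the deficient and 26.1 FPKM in the floxed library (-0.11). Of the copper chaperones, Sco1 was at 1.62 FPKM in the deficient and 1.43 FPKM in the floxed library (-0.75). Sco2 was at 0.644 FPKM in the deficient library and listed at 0 in the floxed library, below the filter. Of 4 kept assembly genes 0 passed 2-fold.

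Complex V makes ATP in its F1 head, which is joined by stalks to a membrane rotor, the c ring. Of 11 kept genes 2 were at least 2-fold higher and 1 lower, with a median of 0.16. Within the F1 head the subunits stood apart from each other. Atp5d, the delta subunit of the central stalk, lies on chromosome 10 from 79605060 to 79608563 (mm9). It was at 58.1 FPKM in the deficient library (bounds 52.3 to 64.0) and 4.55 FPKM in the floxed library (2.89 to 6.21), a log2 difference of 2.56. Atp5b, the catalytic beta subunit, lies on chromosome 10 from 127520363 to 127527444 (mm9). It was at 103 FPKM in the deficient library (97.6 to 108) and 11.3 FPKM in the floxed library (9.6 to 13.1), a log2 difference of 2.22. Its alpha partner Atp5a1 was at 221 FPKM in the deficient and 78.1 FPKM in the floxed library (0.63). Atp5c1, the gamma shaft, was at 675 FPKM in the deficient and 523 FPKM in the floxed library (-0.49). F1 levels thus spanned 11.6-fold in deficient cells and 115-fold in floxed cells.

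Peripheral stalk genes of complex V differed little. Atp5o, which joins the stalk to the head, was at 609 FPKM in the deficient and 361 FPKM in the floxed library (-0.10). Atp5j was at 565 FPKM in the deficient and 283 FPKM in the floxed library (0.13). Atp5h was at 106 FPKM in the deficient and 84.1 FPKM in the floxed library (-0.53). A 529-nt transcript of Atp5h was at 13.7 FPKM (8.45 to 19.0) in the deficient library and listed at 0 in the floxed library, while its major transcript had overlapping bounds.

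The c subunit is encoded by Atp5g1, Atp5g2 and Atp5g3, whose mature proteins are the same and whose import sequences differ. Atp5g1 was at 200.9 FPKM in the deficient and 98.8 FPKM in the floxed library (0.16). Atp5g2 was at 198 FPKM in the deficient and 69.1 FPKM in the floxed library (0.65). Atp5g3 was at 143 FPKM in the deficient and 38.9 FPKM in the floxed library, and its log2 difference of 0.998 lay just inside the 2-fold line. Summed over the 3 genes, the level was 542 FPKM in the deficient and 207 FPKM in the floxed library (0.53). Atp5g1 held 37.1% of the sum in deficient cells and 47.8% in floxed cells, and Atp5g3 held 26.5% in deficient cells and 18.8% in floxed cells. Listed values of single transcripts differed as well. These transcripts are close in length, at 694 and 679 nt for Atp5g3 and 801, 805 and 798 nt for Atp5g1. How reads were divided between them is not given, so their separate values are uncertain. A 679-nt transcript of Atp5g3 was at 60.5 FPKM (51.3 to 69.7) in the deficient and 0.301 FPKM (0 to 6.94) in the floxed library. An 801-nt transcript of Atp5g1 was at 25.8 FPKM (20.3 to 31.3) in deficient cells and near 0 in floxed cells, where its upper bound was 0.369 FPKM.

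Atp5k and Atp5l encode the small e and g subunits, membrane proteins known for holding ATP synthase dimers together, and both were lower in the deficient library as deposited too. Atp5l (chromosome 9, 44721331 to 44728825, mm9) was at 236 FPKM in the deficient library (218 to 254) and 326 FPKM in the floxed library (305 to 348), a log2 difference of -1.32. As deposited that difference was -0.47, under 2-fold. Atp5k was at 596 FPKM in the deficient library (543 to 648) and 785 FPKM in the floxed library (725 to 845). Its only transcript has 292 nt, so it failed the length filter and is in no count; its log2 difference was -1.26. GENCODE names 8 pseudogenes after 5 members (Atp5l, Atp5k, Atp5c1, Cycs and Uqcrh). The labels do not say how reads shared with such copies were counted, so the values of these 5 are uncertain, as is the split among Atp5g1, Atp5g2 and Atp5g3.

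The other genes of these complexes and their regulators, a list of 56 names of which 49 were matched and 42 kept, lay near the median gene as well. Their median was 0.06, with 2 at least 2-fold higher (4.76%, where all kept loci gave 10.3%) and 3 lower (7.14%, where all kept loci gave 11.7%). The higher ones were assembly factors of complex III. Uqcc3 was at 32.3 FPKM in the deficient and 3.34 FPKM in the floxed library (2.08), and Uqcc2 at 377 FPKM in the deficient and 79.2 FPKM in the floxed library (1.38). The lower ones were Ndufa4, Atpif1 and Ttc19. Ndufa4, a subunit first assigned to complex I and later to complex IV, was at 1301 FPKM in the deficient and 2090 FPKM in the floxed library (-1.54). Atpif1, the inhibitor that stops the ATP synthase from running in reverse, was at 781 FPKM in the deficient and 1020 FPKM in the floxed library (-1.24). Ttc19, a complex III factor, was at 1.07 FPKM in the deficient and 1.34 FPKM in the floxed library (-1.04). As deposited none of these 3 was 2-fold lower, with differences of -0.68, -0.38 and -0.18.

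Regulators of respiratory genes were all within 2-fold of the median gene where they were kept, 8 of 12. Of these 8, 6 lay above the median gene, and Pprc1 (-0.15) and Gabpb1 (-0.57) lay below it. Tfam, which packages and transcribes mitochondrial DNA, was at 7.96 FPKM in the deficient and 1.54 FPKM in the floxed library (0.96). Tfb2m and Tfb1m, its partner factors, had log2 differences of 0.80 and 0.78. Nrf1, a transcription factor of many respiratory genes, was at 12.1 FPKM in the deficient and 4.85 FPKM in the floxed library (0.30). The coactivators Ppargc1a and Ppargc1b, the receptor Esrra and Polrmt stayed under 1 FPKM in both libraries. Of related sets drawn by gene name, 35 kept complex I subunits had a median of 0.37, with 9 at least 2-fold higher (25.7%) and 2 lower. The 72 kept mitochondrial ribosomal protein genes had a median of 0.47, with 20 higher (27.8%) and 2 lower. The members' median was 0.04 with 19.5% higher, and 10.3% of all kept loci were higher. Those differences between sets were not tested.

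Differences tended to be higher in members with a GC-rich transcript, with exceptions in both directions. GC content, the share of G and C bases, was taken from the GENCODE M21 transcript with the longest coding sequence of each gene. That transcript can differ from those measured: for Atp5g1 it has 4715 nt, and the longest deposited transcript has 805 nt. Most of the Cox6a2 value sat on its transcript of 180 nt. Across the 41 kept members Spearman's rho of GC content and log2 difference was 0.47, and across 8475 kept protein-coding genes it was 0.13. Genes are not independent replicates and share both libraries, so these values are descriptions. Of the 14 members with the lowest GC content (40.8% to 49.0%), 0 were at least 2-fold higher and their median was -0.44. Of the 14 in the middle, 3 were higher and the median was -0.03. Of the 13 with the highest GC content (54.9% to 59.3%), 5 were higher and the median was 0.65. All kept genes in those GC ranges had medians of -0.05, 0.00 and 0.13, in the same order. Atp5d (59.3% GC), Uqcr11 (58.9%), Cox6a1 (58.8%), Cox8a (58.5%) and Uqcrc1 (57.5%) were higher, whereas Cox4i1 (58.0%), Uqcr10 (55.5%), Cox7a1 (55.3%) and Sdhb (54.9%) lay below the median gene. Cox6a2 (52.8%), Atp5b (51.6%) and Cox5b (49.0%) were higher from the middle range. The part of base composition in these differences was not tested.

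**Figure D4:**
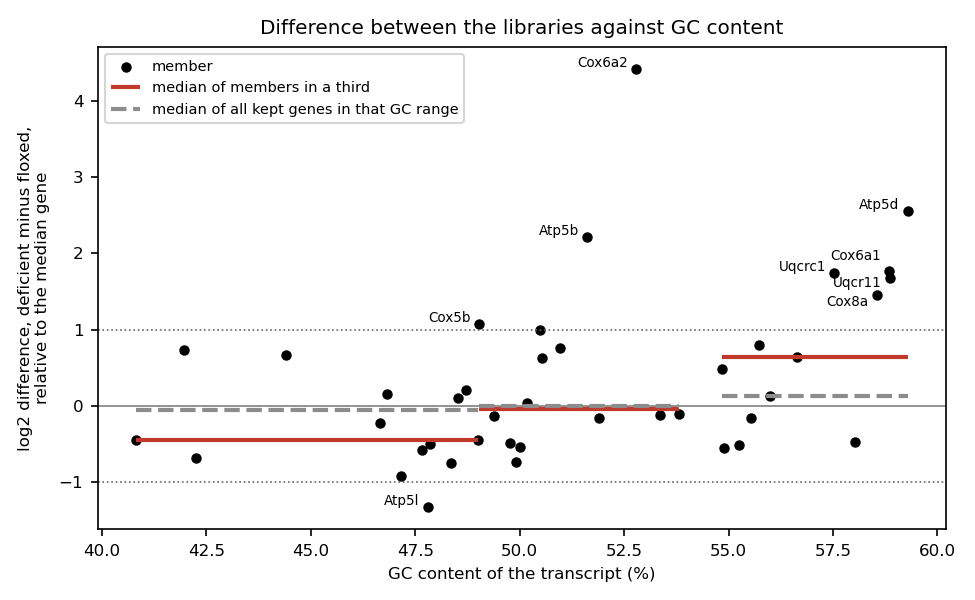
Log2 difference of the 41 kept members, deficient minus floxed, relative to the median gene, against GC content of the GENCODE M21 transcript. Red lines are member medians in 3 ranges of GC content and dashed grey lines the medians of all kept genes in those ranges. Member medians are -0.44, -0.03 and 0.65 from low to high GC content, and 5 of the 8 higher members have at least 57.5% GC.

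Many members stand head to head with another gene, an arrangement in which a pair of genes on opposite strands share the stretch between their starts. In the files' own coordinates 16 of 41 kept members, or 39.0%, had a named neighbour starting within 1000 bases on the other strand, against 18.2% of 8660 kept named genes. Starts were taken from the outermost transcript of each gene, whatever its level. Of the 16 neighbours, 13 were kept and none passed 2-fold in either direction, where 10.3% of all kept loci were higher and 11.7% lower. None of the members called higher or lower was among the 16. Over the 13 pairs Spearman's rho of the log2 differences was 0.50, and 9 pairs lay on the same side of the median gene, as a description of these libraries. Neither the share of calls nor this likeness within pairs was computed for other head-to-head genes. Atp5c1 (-0.49) faces Kin (-0.61) at a distance of 101 bases, and Cox15 (-0.58) faces Cutc (-0.53) at 22 bases. Cox7b (0.74) is paired with Magt1 (0.61), at 569 bases, only through a transcript near 0. That transcript was at 0.0111 FPKM in the deficient and 0.00602 FPKM in the floxed library. The other Cox7b transcripts start at base 103211039 or later, beyond the limit of 1000 bases. Counts and rho were not recomputed without this pair. Sdhd (-0.13) faces Timm8b (-0.85), a gene of mitochondrial protein import, at 51 bases. Timm8b was at 171 FPKM in the deficient and 169.9 FPKM in the floxed library.

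Atp5j overlaps the start of Gabpa, which encodes the DNA-binding part of the respiratory gene regulator GABP, and Surf1 overlaps that of Surf2. Gabpa was at 8.79 FPKM in the deficient and 4.34 FPKM in the floxed library, a log2 difference of 0.02 beside 0.13 for Atp5j. The labels do not say whether counting used strand, so reads in those overlaps may not be separable.

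**Figure D5:**
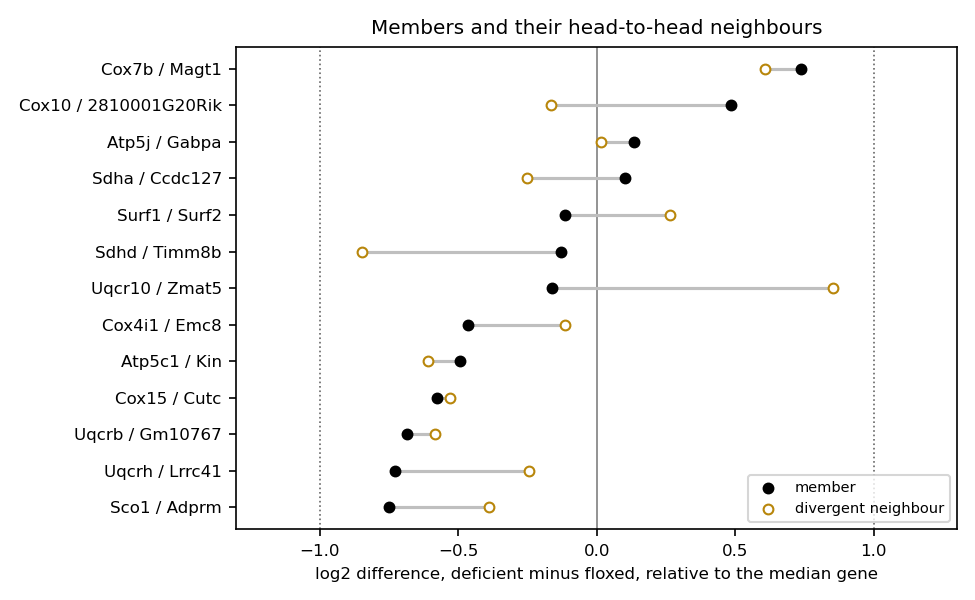
Log2 difference, deficient minus floxed, relative to the median gene, of the 13 kept members with a kept head-to-head neighbour (black) and of that neighbour (open). Cox7b with Magt1 is included only through a Cox7b transcript near 0 FPKM. All points lie inside the dotted 2-fold lines, and the pairs farthest apart are Uqcr10 with Zmat5 (-0.16 and 0.85) and Sdhd with Timm8b (-0.13 and -0.85).

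Promoters of respiratory genes are known for sites of NRF1 and of ETS factors such as GABP. RefSeq promoter windows (GRCm38.p6, 250 bases before to 50 after the start) were matched for 35 of 45 members. Both strands were searched for the NRF1 motif (its letters stand in capitals in the Uqcrc1 window shown here), CCGGAAG (ETS) and AANATGGC (YY1), where N is any base. NRF1 letters were in 10 of 35 members, or 28.6%, against 12.7% of 6922 kept named genes and 5.19% of all 27025 genes with a window. ETS letters were in 15 of 35, or 42.9%, against 23.0% of kept named genes and 9.93% of all genes. YY1 letters were in 11.4% of members, 11.3% of kept named genes and 6.96% of all genes. By call, NRF1 or ETS letters were in 4 of 7 higher members with a window and in 16 of 25 other kept members. The DR1 motif, a full repeat of the kind PPARg binds with its partner RXR, was in 0 of 35 members and in 0.0481% of all genes. The half-site of the receptor ERR was in 2 of 35 members, Atp5g3 and Sdhd (5.71%), against 0.289% of kept named genes and 0.466% of all genes. The CRE motif was in 1 member (2.86%, against 3.79% of kept named genes), and the TATA motif TATAAA in 2 (5.71%, against 9.0%). A match is a description of letters and not of binding.

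Windows are shown 5′ to 3′ on the gene's strand, with NRF1, ETS and YY1 letters in capitals, for a pair of members that were higher (Cox6a1 and Uqcrc1), the 1 that was lower (Atp5l) and a pair with head-to-head neighbours (Sdhd with Timm8b, Atp5j with Gabpa).
Cox6a1 (chr5:115348909-115349208, minus strand): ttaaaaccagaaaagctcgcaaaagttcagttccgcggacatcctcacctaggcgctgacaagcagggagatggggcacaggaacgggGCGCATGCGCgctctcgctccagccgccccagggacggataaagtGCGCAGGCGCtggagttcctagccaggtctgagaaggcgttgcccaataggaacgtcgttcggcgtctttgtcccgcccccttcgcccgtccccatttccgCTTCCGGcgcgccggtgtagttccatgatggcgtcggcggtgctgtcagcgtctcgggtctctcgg
Uqcrc1 (chr9:108936398-108936697, plus strand): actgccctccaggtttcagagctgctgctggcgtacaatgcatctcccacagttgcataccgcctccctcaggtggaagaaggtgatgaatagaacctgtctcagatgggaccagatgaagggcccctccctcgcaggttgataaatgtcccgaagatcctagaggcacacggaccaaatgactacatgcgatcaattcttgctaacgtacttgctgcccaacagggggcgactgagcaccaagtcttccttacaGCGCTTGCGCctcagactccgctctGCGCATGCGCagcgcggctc
Atp5l (chr9:44920693-44920992, minus strand): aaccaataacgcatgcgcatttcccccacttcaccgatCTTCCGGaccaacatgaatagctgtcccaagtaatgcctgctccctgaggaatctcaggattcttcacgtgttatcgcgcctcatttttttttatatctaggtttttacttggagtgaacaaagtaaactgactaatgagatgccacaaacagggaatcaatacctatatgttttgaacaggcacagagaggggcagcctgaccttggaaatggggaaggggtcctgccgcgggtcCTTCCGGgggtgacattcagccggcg
Sdhd (chr9:50603800-50604099, minus strand): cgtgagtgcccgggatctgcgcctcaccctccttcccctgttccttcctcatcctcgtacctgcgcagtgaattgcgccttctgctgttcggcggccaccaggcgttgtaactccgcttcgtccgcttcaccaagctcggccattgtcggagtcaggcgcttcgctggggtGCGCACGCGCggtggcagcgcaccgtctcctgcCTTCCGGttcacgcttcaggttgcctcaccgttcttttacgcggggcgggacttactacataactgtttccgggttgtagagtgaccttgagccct
Atp5j (chr16:84834927-84835226, minus strand): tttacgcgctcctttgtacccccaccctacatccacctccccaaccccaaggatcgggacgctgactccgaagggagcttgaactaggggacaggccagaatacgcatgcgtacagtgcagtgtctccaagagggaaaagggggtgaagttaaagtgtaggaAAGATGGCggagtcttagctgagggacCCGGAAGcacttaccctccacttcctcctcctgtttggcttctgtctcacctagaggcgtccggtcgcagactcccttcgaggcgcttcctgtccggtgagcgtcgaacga
Cox6a1 and Uqcrc1 each hold 2 NRF1 matches, and Cox6a1 also holds 1 ETS match. Atp5l holds 2 ETS matches and no NRF1 match. NRF1 letters were in 2 of the 7 higher members with a window, the 2 shown here, and in 7 of 25 other kept members. Sdhd holds 1 NRF1 and 1 ETS match, and this window of Atp5j 1 ETS and 1 YY1 match.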

How the data were processed

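RNA of 2 libraries, 1 PPARg-deficient and 1 PPARg-floxed, was sequenced, and groups came from the genotype label. Per the file headers, Cufflinks wrote the deposited values: FPKM per transcript with lower and upper bounds and read coverage. TopHat2 2.0.5, Cufflinks 2.0.2, Cuffdiff 2.0.2 and build mm9 are named without roles, per the submitters' processing notes. Not given in the sources used here are annotation, filters and strand handling. As FPKM is a share of a library's total, abundant genes can shift the rest.

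The deposited files name no genes. Loci were named here by matching ordered intron and internal exon lengths to GENCODE M21 on the same chromosome and strand, with no coordinate converted. This named 19186 of 25707 loci, and against the wrong chromosome 0 of 36943 whole chains and 3 of 2883 single introns matched. Of the 45 members, 43 were named by a whole chain, Uqcrc1 by a run of lengths and Cox8a by a single intron with a terminal exon. Sco2 shares a locus with Tymp and was taken from its own transcript.

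Transcript FPKM was summed per gene. Kept genes reached 1 FPKM in either library and had a transcript no shorter than 300 nt. The log2 difference used a pseudocount of 1 FPKM, which understates changes of low genes, and the median of kept genes was subtracted. A gene was called at 2-fold, with no test, since each group has 1 library. The median subtraction and the 2-fold calls were tested on simulated data, with preset noise and differences planted in abundant genes only. The naming of loci, the summing of transcripts and differences of low genes were not tested that way. Every member is named. Of the other pathway genes, those of at least 5 FPKM and 2-fold different and up to 4 regulators were to be named. Ttc19, Pprc1, Gabpb1 and the regulators under 1 FPKM were added after their values were seen, as were head-to-head neighbours. Members and lists were chosen with earlier results of these data known, and the GC, promoter, neighbour and related-set descriptions were added after the member values were seen. Alternatives were other scalings, pseudocounts, filters, transcript choices and folds. Python 3.11.15 with numpy 2.4.6, pandas 2.3.3, scipy 1.17.1 and matplotlib 3.10.9 was used.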

Additional observations from a re-analysis of the deposited data

Results flagged for a closer look

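The mitochondrial locus (chromosome M, 17 to 16299, mm9) carries the genes of the subunits of complexes III, IV and V that are made inside the mitochondrion, and no member value above draws on it. It was not removed from the loci behind the shares and summed FPKM of all kept loci. It stood at 3723 FPKM in the deficient library and was listed at 0 in the floxed library, which is what drew attention to it. A listed 0 can be a failed estimate, so no fold is given.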

How the results depend on the processing

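Atp5b, Atp5d, Cox6a1 and Uqcr11 stayed at least 2-fold higher in 12 of 12 settings, the reported one and 11 with another scaling, pseudocount, filter, transcript choice or naming, and Cox8a and Uqcrc1 in the 11 that gave them a value. Cox6a2 held in 11, and was at 0.48 with transcripts of at least 300 nt. None of the 9 called members changed sign in their 97 recomputed values, whereas 24 of the 32 other kept members changed sign in at least 1 setting, values as deposited included. Called members were picked for lying at least 2-fold from the median gene, so this contrast was largely built in and is no support for the calls. Counts of other results moved, and their causes were not tested beyond what each setting changes by construction. Members at least 2-fold higher numbered 8 of 41, and 18 as deposited, 13 with a pseudocount of 5 FPKM, 17 of 45 with no filter, 15 at a fold of 1.5 and 3 at a fold of 4. Of all loci kept in each of those settings, 10.3%, 42.0%, 8.50%, 17.6%, 21.9% and 1.51% were higher, in the same order. Members lower numbered 1, and 0 as deposited, with a pseudocount of 5 FPKM, with no filter and at a fold of 4, 2 with upper-quartile scaling and a filter of 5 FPKM, 3 with TPM and a pseudocount of 0.1 FPKM, and 5 at a fold of 1.5. Of all kept loci, 11.7%, 4.64%, 4.02%, 2.72%, 3.92%, 12.1%, 14.0%, 9.54%, 16.1% and 20.5% were lower, in the same order. The members' median of 0.04 was 0.89 as deposited, -0.19 with upper-quartile scaling, -0.24 with TPM, -0.24 with a pseudocount of 0.1 FPKM, 0.31 with 5 FPKM, 0.71 with no filter, -0.10 with a filter of 5 FPKM, -0.00601 with transcripts of at least 300 nt, -0.00561 with covered bases and -0.11 with whole chains only. Other pathway genes higher numbered 2, and 18 as deposited and with no filter, 4 with upper-quartile scaling, the most abundant transcript and covered bases, 7 with a pseudocount of 0.1 FPKM, 1 with whole chains and at a fold of 4, and 9 at a fold of 1.5. Other pathway genes lower numbered 3, and 0 as deposited, with no filter and at a fold of 4, 5 with upper-quartile scaling, TPM, a filter of 5 FPKM and the most abundant transcript, 7 with a pseudocount of 0.1 FPKM and at a fold of 1.5, and 1 with a pseudocount of 5 FPKM. Of all loci kept in each setting, 11.1% were higher with upper-quartile scaling, 12.9% with the most abundant transcript and 9.98% with covered bases. That share was 15.97% with a pseudocount of 0.1 FPKM and 10.2% with whole chains. With the most abundant transcript 13.5% of all kept loci were lower, and the other shares are those given above for the members. No paired analysis was possible because each group has 1 library, and for the same reason no replicate could be left out. In the floxed library 8 kept members had under 10 kilobases of covered bases, among them the called Cox6a2 (1.3), Cox5b (2.43) and Atp5d (5.63); the others were Cox7a1, Cyc1, Cox10, Cox5a and Sco1.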
